A study of Mus musculus with 12 samples.

Results

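The 10 genes described here build and read methylation of histone H3 at lysine 9 (H3K9). They are the H3K9 methyltransferase genes Suv39h1, Suv39h2, Setdb1, Ehmt1 and Ehmt2, the genes Cbx1, Cbx3 and Cbx5 for the 3 heterochromatin protein 1 (HP1) family members, the corepressor gene Trim28 and the chromatin remodeller gene Atrx. Their probe sets were taken by the gene symbol in the array annotation, with no use of their signals. The members themselves were chosen with earlier results of these data known. Of 45037 probe sets, 29 carried the symbol of a member alone, and they stood for 9 of the 10 genes. Suv39h1 was not analysed here. A further 4 probe sets were annotated to both Cbx3 and its pseudogene Cbx3-ps5 and are given apart from the members. Of the 29 probe sets, 27 passed the filter on low signals, and for each gene the brightest probe set is the one counted.

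Messenger RNA had been measured on 12 Affymetrix Mouse 430_2.0 arrays of mouse embryonic stem (ES) cells, 3 biological replicates for each of 4 genotypes. These were wild type cells, Ring1B deficient cells made by gene targeting, Eed deficient cells made by gene targeting, and double deficient cells in which Ring1B had been targeted on top of the Eed deficiency. No treatment is named for any group. Values set out in genotype order follow this sequence, from wild type to double deficient. The labels describe no more than 1 line for a genotype, so genotype and line cannot be told apart. The p-values rest on the spread between arrays within genotypes, estimated from all 4 genotypes together, and not on a spread between lines. The arrays had medians from 19.07 to 28.01 in MAS5 signal units and replicate correlations from 0.961 to 0.980 across probe sets, which are not independent replicates. Eed, the targeted subunit of Polycomb repressive complex PRC2, gave 1428 ± 159, 1642 ± 283, 37.8 ± 13.1 and 71.2 ± 21.0 in genotype order (SD, n = 3). The brightest probe set of Rnf2, the gene of the Ring1B ubiquitin ligase of PRC1, gave 851 ± 124, 468 ± 65.7, 779 ± 168 and 383 ± 18.8. Where that probe set lies relative to the targeted part of the gene was not analysed here. The ES cell markers Pou5f1, Nanog, Sox2, Zfp42, Dppa5a, Esrrb, Tdgf1 and Utf1 had mean signals of at least 100 in every genotype.

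Polycomb repression and H3K9 methylation are silencing systems that use different histone marks. Polycomb acts on developmental genes through ubiquitination of histone H2A and methylation of H3 at lysine 27. H3K9 methylation marks pericentromeric satellites and retroelements, where SUV39H enzymes, or SETDB1 brought in by TRIM28 and KRAB zinc finger proteins, write the trimethyl mark and HP1 proteins bind it. EHMT2 (G9a) and EHMT1 (GLP) work as a pair that writes the dimethyl mark, mostly in euchromatin. ATRX, with its partner DAXX, places histone H3.3 at such repeats.

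The genes with a called change were Suv39h2, Cbx1 and Cbx5. Their promoter windows from RefSeq (build GRCm38.p6), 250 bases before to 50 bases after a transcript start, are shown. Suv39h2 and Cbx5 were taken by rule, as the 2 members with the widest range of genotype means. Cbx1 was added after its values were seen. Shared control of these promoters was not tested. CG dinucleotides stand in capitals. The windows are chr2:3474937-3475236 on the minus strand for Suv39h2, chr11:96788885-96789184 on the plus strand for Cbx1 and chr15:103239803-103240102 on the minus strand for the upstream start of Cbx5.
Suv39h2: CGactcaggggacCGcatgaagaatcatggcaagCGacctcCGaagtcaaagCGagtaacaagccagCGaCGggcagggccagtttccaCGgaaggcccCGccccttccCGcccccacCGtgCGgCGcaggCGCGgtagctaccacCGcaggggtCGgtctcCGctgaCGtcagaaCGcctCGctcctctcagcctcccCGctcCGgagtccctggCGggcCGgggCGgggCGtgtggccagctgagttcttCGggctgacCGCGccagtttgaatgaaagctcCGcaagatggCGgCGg
Cbx1: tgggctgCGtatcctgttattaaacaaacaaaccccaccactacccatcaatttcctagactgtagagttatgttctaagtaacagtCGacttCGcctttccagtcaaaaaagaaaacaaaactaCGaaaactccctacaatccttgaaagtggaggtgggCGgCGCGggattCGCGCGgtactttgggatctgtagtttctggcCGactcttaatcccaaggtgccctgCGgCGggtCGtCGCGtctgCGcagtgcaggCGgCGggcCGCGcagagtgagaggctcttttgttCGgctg
Cbx5: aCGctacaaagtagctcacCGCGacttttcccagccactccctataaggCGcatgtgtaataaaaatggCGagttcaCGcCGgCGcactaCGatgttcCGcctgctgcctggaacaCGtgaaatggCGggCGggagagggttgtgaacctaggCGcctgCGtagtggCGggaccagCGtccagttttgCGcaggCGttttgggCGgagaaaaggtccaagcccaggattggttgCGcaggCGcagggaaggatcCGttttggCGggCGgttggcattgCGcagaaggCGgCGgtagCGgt
The Suv39h2 window held 33 CG dinucleotides, the Cbx5 window 29 and the Cbx1 window 22, against a median of 7 over 32851 windows. Of all windows, 91.4%, 87.1% and 76.9% had fewer in the same order. The second Cbx5 window held 8. Windows of members that were not called held as many in most cases, with 34 for Ehmt1, 28 and 40 for Ehmt2, 34 and 32 for Cbx3 and 23 for Trim28, against 15 for Setdb1 and 11 for Atrx. The E2F-like letters TTTCCCGC, TTTGGCGC, TTTCGCGC and TTTGCCGC, searched on both strands, were absent from the printed windows. They were present in 2 of the 14 windows of members (1 of Suv39h1 and 1 of Cbx3) and in 2.26% of all windows. That says only that these letters are not in these windows.

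Over all 4 genotypes, Suv39h2, Cbx1 and Cbx5 differed and the other 6 genes were not called. A moderated F test in limma, with Benjamini-Hochberg adjustment over 30027 probe sets, called 3 of 9 member genes and 21.3% of all probe sets. Counted by probe set, as that share is, it called 5 of 27 for the members, which is not a larger share. For these 3 genes the order of the mean levels was wild type, then Ring1B deficient, then Eed deficient, then double deficient. No member gene rose past the threshold in any contrast of genotypes. In such bulk RNA, fewer cells of a type and less RNA per cell cannot be told apart.

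**Figure D1:**
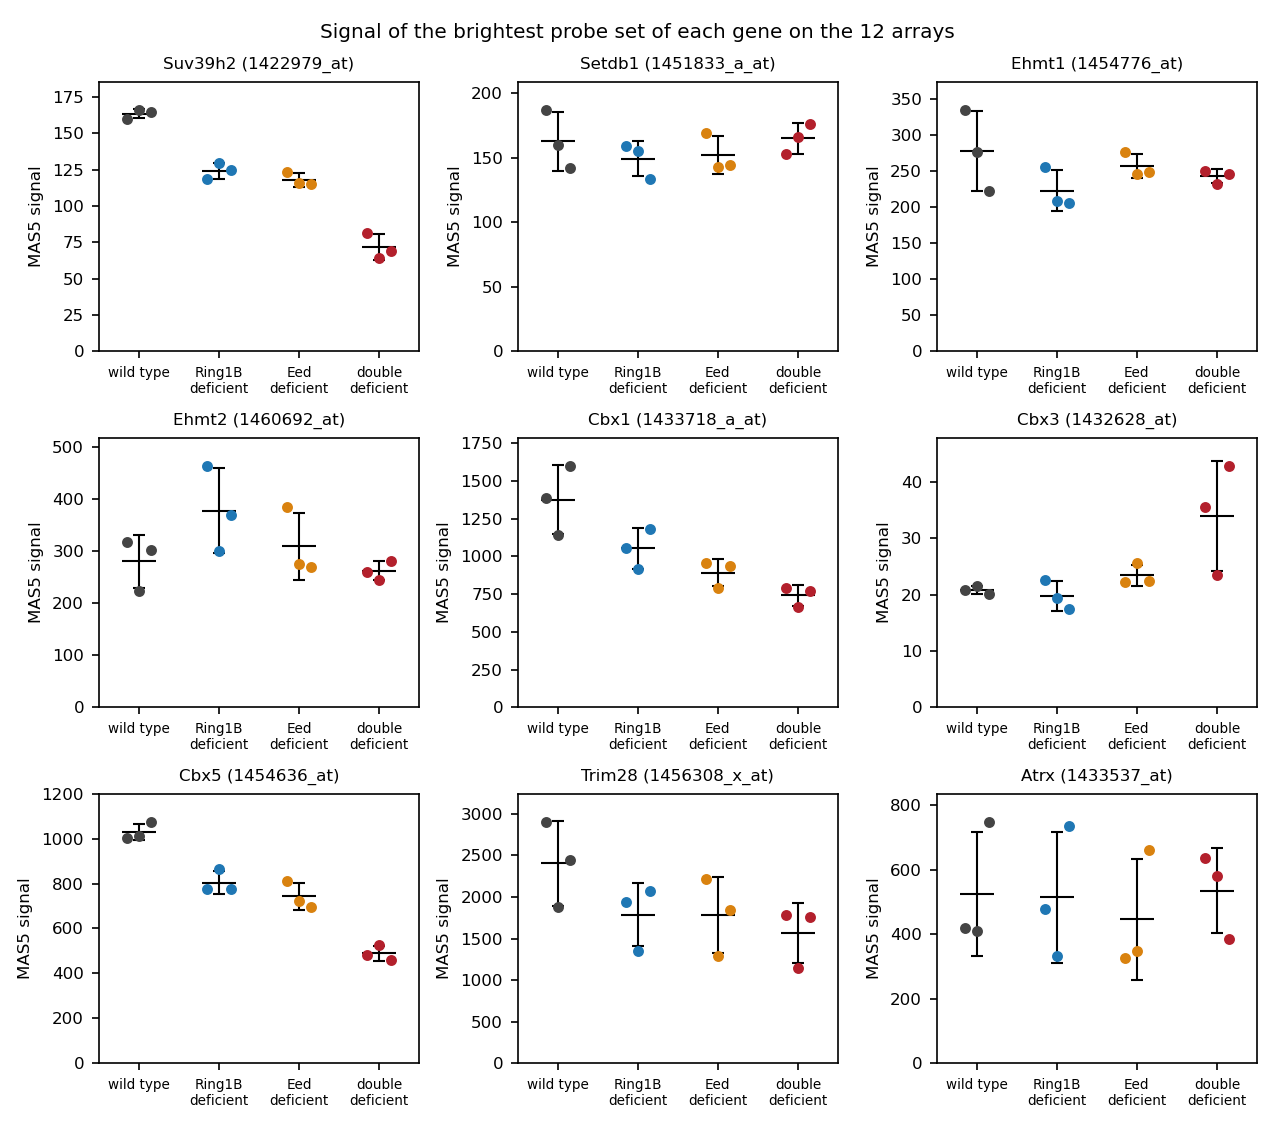
MAS5 signal (linear axis from 0) of the brightest probe set of each of the 9 genes on the 12 arrays, by genotype. Points are arrays, and bars are the mean and SD of 3 arrays. Suv39h2, Cbx1 and Cbx5 step down from wild type to double deficient cells, while the arrays of Setdb1, Ehmt1 and Atrx overlap between all genotypes.

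Suv39h2, an enzyme that writes trimethyl H3K9 at pericentromeric heterochromatin, was lowest in double deficient cells. Its signal was 160, 166 and 165 on the wild type arrays, 118, 129 and 125 on the Ring1B deficient arrays, 123, 116 and 115 on the Eed deficient arrays, and 81.5, 64.2 and 68.7 on the double deficient arrays. The wild type arrays lay above all other arrays and the double deficient arrays below all others, while the arrays of the single mutants overlapped. Double deficient cells had 43.7% of the wild type signal, a log2 change of -1.15 (SE 0.14, adjusted p = 4.92e-05). Against Ring1B deficient cells the log2 change was -0.76 (adjusted p = 0.00293) and against Eed deficient cells -0.69 (adjusted p = 0.0294). The call against Eed deficient cells was lost when any 1 array of either group was left out (adjusted p from 0.0502 to 0.145). The fall in Eed deficient cells against wild type was -0.45, with an adjusted p of 0.0493. That call was not made when any 1 of the 12 arrays was left out (adjusted p from 0.055 to 0.139). In Ring1B deficient cells the log2 change was -0.38 (95% interval -0.68 to -0.09, adjusted p = 0.153).

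The other Suv39h2 probe sets were read next. The second, 1433996_at, gave 130.4 ± 9.86, 99.0 ± 2.98, 96.5 ± 6.70 and 84.9 ± 13.8 in genotype order (SD, n = 3). It fell in double deficient cells by 0.60 on the log2 scale (adjusted p = 0.0104), a smaller fall than that of the first probe set, and this call was not made without double deficient replicate 2 (adjusted p = 0.0519). The dimmest, 1436561_at, gave 45.8 ± 10.96 in wild type and 35.2 ± 6.66 in double deficient cells, a log2 change of -0.33 that was not called.

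Cbx5 encodes HP1 alpha, which binds methylated H3K9 and gathers at chromocentres. Its brightest probe set gave 1004, 1012 and 1072 on the wild type arrays, 774, 863 and 775 on the Ring1B deficient arrays, 812, 720 and 696 on the Eed deficient arrays and 483, 527 and 458 on the double deficient arrays. As for Suv39h2, every wild type array was above and every double deficient array below all others. The double deficient signal was 47.5% of wild type, a log2 change of -1.07 (SE 0.11, adjusted p = 1.71e-05). It was lower by 0.71 in log2 than in Ring1B deficient cells (log2 change -0.71, adjusted p = 0.00135) and by 0.60 than in Eed deficient cells (log2 change -0.60, adjusted p = 0.0232). The call against Eed deficient cells was lost without replicate 1 or 2 of those cells or replicate 1 or 3 of the double deficient cells (adjusted p from 0.0587 to 0.138). Eed deficient cells had a log2 change of -0.47 against wild type (adjusted p = 0.0168). Leaving out wild type replicate 3 raised this adjusted p to 0.0647, and leaving out replicate 2 or 3 of the Eed deficient cells raised it to 0.0569 or 0.0759, so the call was lost. Ring1B deficient cells had -0.36 (95% interval -0.60 to -0.11, adjusted p = 0.105).

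The probe sets of Cbx5 did not move alike. Probe set 1450416_at gave 190 ± 6.41 in wild type and 175 ± 42.3 in double deficient cells, a log2 change of -0.14 (95% interval -0.51 to 0.23). Probe set 1421934_at gave 120 ± 15.7 and 123 ± 22.0, a log2 change of 0.02 (95% interval -0.37 to 0.42). Neither interval reaches that of the brightest probe set, which ran from -1.31 to -0.82. The remaining 2 Cbx5 probe sets did not pass the filter, with genotype means from 5.34 to 16.8. The transcripts that each probe set reads were not analysed here.

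Cbx1 encodes HP1 beta. Its brightest probe set gave 1387, 1141 and 1595 on the wild type arrays, 1056, 917 and 1183 on the Ring1B deficient arrays, 953, 789 and 935 on the Eed deficient arrays and 793, 662 and 773 on the double deficient arrays. All wild type arrays were above all Eed deficient and double deficient arrays, and Ring1B deficient arrays overlapped with both wild type and Eed deficient arrays. Double deficient cells had 54.0% of the wild type signal (log2 change -0.87, SE 0.15, adjusted p = 6.94e-04). Eed deficient cells had a log2 change of -0.61 (adjusted p = 0.0154). That call was lost when wild type replicate 3 (adjusted p = 0.0768) or Eed deficient replicate 2 (0.0642) was left out. Against Ring1B deficient cells the double deficient change was -0.50 (adjusted p = 0.0376). This last call was lost when Ring1B deficient replicate 1 or 3, or any 1 of the double deficient arrays, was left out (adjusted p from 0.0668 to 0.144), and under quantile normalization (0.102).

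A second bright Cbx1 probe set, 1436266_x_at, gave 1023 ± 231, 695 ± 113, 537 ± 104 and 404 ± 23.1 in genotype order (SD, n = 3). It fell by 1.31 on the log2 scale in double deficient cells (adjusted p = 1.7e-04) and by 0.92 in Eed deficient cells (adjusted p = 0.00537). Probe set 1422935_x_at, at 104 ± 24.3 in wild type, was called in Eed deficient cells (-0.62, adjusted p = 0.0457) and not in double deficient cells (-0.38, adjusted p = 0.148). That call was lost when any Eed deficient array was left out, and without replicate 1 or 2 of the wild type cells or replicate 1 or 3 of the Ring1B deficient or double deficient cells (adjusted p from 0.055 to 0.149). The other 2 were dim, with genotype means from 23.1 to 43.8, and were not called in any contrast.

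**Figure D2:**
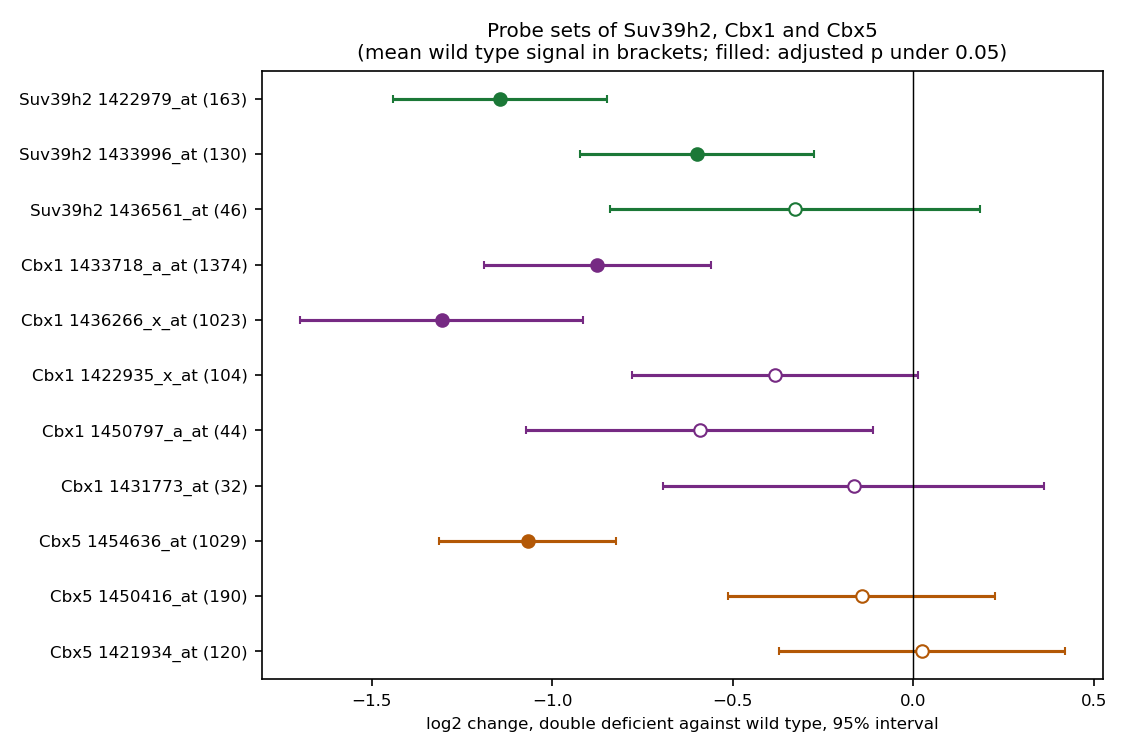
Log2 change in double deficient against wild type cells for each tested probe set of Suv39h2, Cbx1 and Cbx5, with 95% intervals of the limma model. Filled points passed an adjusted p of 0.05. All 5 called probe sets lie below 0, and for Cbx5 only the brightest is called, at -1.07.

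Cbx3, the gene of HP1 gamma, could not be read as firmly as the other HP1 genes. Its one unshared probe set was dim, with 20.8, 21.6 and 20.1 on the wild type arrays, 22.7, 19.4 and 17.5 on the Ring1B deficient arrays, 22.2, 25.6 and 22.5 on the Eed deficient arrays and 35.6, 23.5 and 42.8 on the double deficient arrays. The arrays of the Eed deficient and double deficient cells lay above the wild type arrays. The log2 change of 0.56 was not called (adjusted p = 0.0607), and it was called without double deficient replicate 2 (adjusted p = 0.0164). The brightest of the probe sets shared with Cbx3-ps5 gave 2853 ± 124, 2673 ± 128, 2796 ± 284 and 2392 ± 193 in genotype order, with a log2 change of -0.26 in double deficient cells (adjusted p = 0.081). The next shared one also had -0.26 (adjusted p = 0.0685). Signal from the gene and from the pseudogene cannot be told apart in these probe sets.

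Setdb1, Ehmt1 and Ehmt2, the other member H3K9 methyltransferase genes that were tested, were not called in any contrast. Setdb1, which writes trimethyl H3K9 at retroelements, gave 187, 160 and 142 on the wild type arrays and 153, 166 and 177 on the double deficient arrays, and the arrays overlapped. Its log2 change of 0.03 had a 95% interval from -0.30 to 0.35. Its other 2 probe sets were dim, with genotype means from 10.8 to 17.0. Ehmt1 gave 278 ± 55.8 in wild type and 243 ± 9.59 in double deficient cells (log2 change -0.17, 95% interval -0.51 to 0.17). Ehmt2 was highest in Ring1B deficient cells, with 462, 299.8 and 369 against 317, 222 and 301 on the wild type arrays. The log2 change of 0.42 had a 95% interval that ran from just above 0 to 0.83, and the arrays overlapped (adjusted p = 0.293). From Ring1B deficient to double deficient cells Ehmt2 changed by -0.50 (adjusted p = 0.102), and these arrays did not overlap. The dimmer Ehmt2 probe set, 1426888_at, went from 37.8 ± 8.63 in wild type to 23.99 ± 11.8 in double deficient cells and was not called.

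Trim28, the corepressor that brings SETDB1 to KRAB zinc finger proteins, gave 2897, 1878 and 2444 on the wild type arrays, 1942, 1352 and 2068 on the Ring1B deficient arrays, 2212, 1296 and 1842 on the Eed deficient arrays and 1787, 1147 and 1759 on the double deficient arrays. Every double deficient array lay below every wild type array. The log2 change of -0.63 (95% interval -1.12 to -0.13) was not called (adjusted p = 0.0635). It was called with every array centred on its median (-0.88, adjusted p = 0.0118), and with replicate 2 of the wild type, Ring1B deficient or Eed deficient cells left out (adjusted p = 0.0352, 0.0451 and 0.0383). It was also called with only these 2 genotypes in the fit (adjusted p = 0.039) and with a replicate block (adjusted p = 4.63e-05). The second Trim28 probe set, 1415869_a_at, gave 1740.2 ± 502, 1199 ± 328, 1229 ± 464 and 1101 ± 292 in genotype order, with a log2 change of -0.65 in double deficient cells (adjusted p = 0.129). In each genotype the array labelled replicate 2 was the lowest of the 3, for 2 of 2 Trim28 probe sets.

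Atrx varied more among replicates than between genotypes. Its brightest probe set gave 419, 410.5 and 748 on the wild type arrays, 478, 334 and 735 on the Ring1B deficient arrays, 328, 349 and 663 on the Eed deficient arrays and 637, 581 and 386 on the double deficient arrays. Replicate 3 was the highest array for 7 of 7 Atrx probe sets in wild type, Ring1B deficient and Eed deficient cells. In double deficient cells it was the lowest array for 6 of 7. The other 6 probe sets had genotype means from 28.2 to 164.6. The log2 change in double deficient cells was 0.05, with a wide 95% interval from -0.65 to 0.75, and none of the 7 probe sets was called in any contrast by limma.

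**Figure D3:**
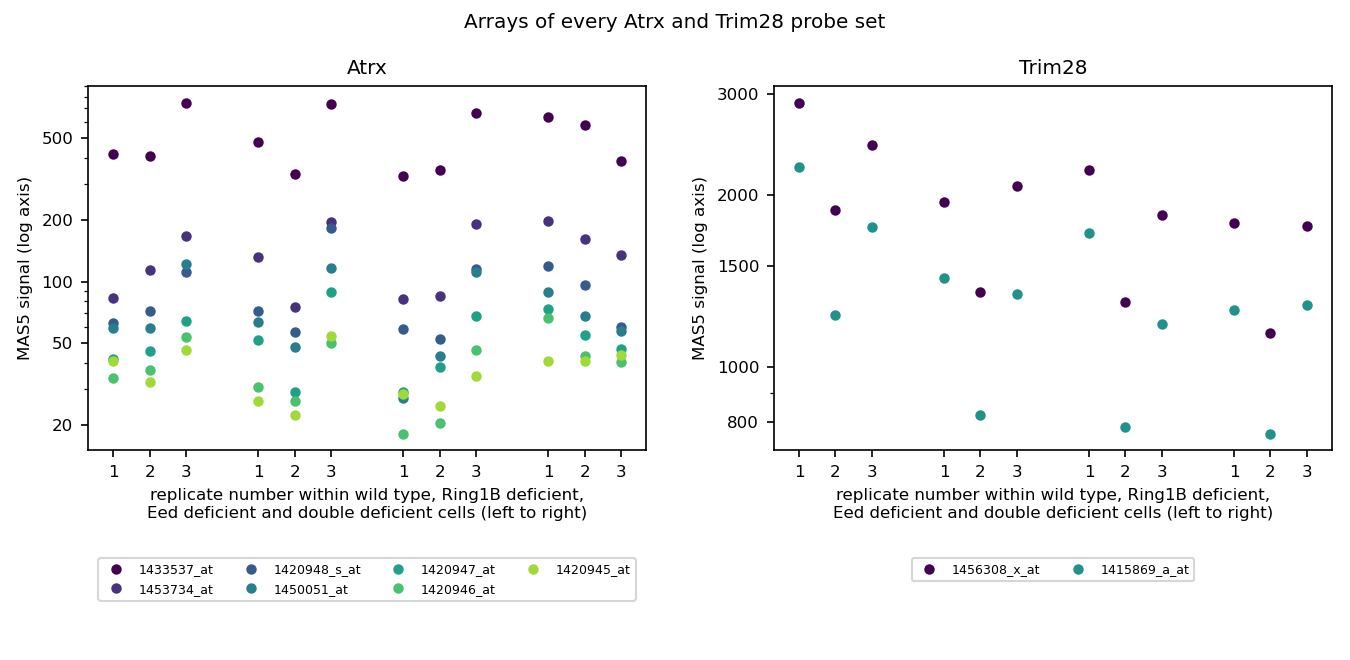
MAS5 signal (log axis) of all 7 Atrx and both Trim28 probe sets on each of the 12 arrays, by replicate number within each genotype. Each colour is a probe set. Atrx replicate 3 is highest in the first 3 genotypes, and Trim28 replicate 2 is lowest in all 4.

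The member genes were then counted in each contrast, with the share of all 30027 probe sets called the same way beside each count. The counts are of genes, with 1 probe set each, while the shares are of all probe sets. Counted by probe set, 5 of 27 were lower in both double deficient and Eed deficient cells against wild type. There were 4 of 27 lower in double deficient against Ring1B deficient and 2 of 27 in double deficient against Eed deficient cells. No member probe set was called higher. In double deficient against wild type cells, 3 of 9 member genes were lower and 0 higher, where 8.71% of all probe sets were lower, 15.2% higher and 23.9% called in either direction. The arrays of 4 members did not overlap and were lower (16.3% of all probe sets). Those of Cbx3 did not overlap and were higher (24.4%), but its counted probe set was dim. The brightest probe sets shared with Cbx3-ps5 had lower means in double deficient cells and were not called. The median log2 change was -0.17 for the member genes and 0.09 for all probe sets.

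In Eed deficient against wild type cells, 3 of 9 members were lower (3.30% of all) and 0 higher (7.49%), with 10.8% of all called in either direction. Suv39h2, Cbx1 and Cbx5 were also the members whose arrays did not overlap and were lower (11.6% of all). Cbx3, with its dim probe set, was the one whose arrays were higher (15.3%). With Eed deficient replicate 3 left out the lower count was 1. It was 0 without wild type replicate 3 and 0 without Eed deficient replicate 2. The median log2 change was -0.25 for the members and 0.00 for all probe sets.

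In Ring1B deficient against wild type cells, 0 of 9 members were called by limma, where 4.50% of all probe sets were called, 2.91% higher and 1.59% lower. At an unadjusted p under 0.05 there were 4, namely Suv39h2, Cbx1 and Cbx5 lower and Ehmt2 higher. With a replicate block added to the fit, 3 members were called lower (Cbx1, Cbx5 and Trim28). The share of all probe sets under that block is not given here. The arrays of Suv39h2 and Cbx5 did not overlap and were lower (9.90% of all), while 0 members stood apart in the other direction (10% of all). The median log2 change of the members was -0.30, and that of all probe sets -0.02.

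In double deficient against Ring1B deficient cells, 3 of 9 members were lower (4.20%) and 0 higher (9.48%), with 13.7% of all called. The arrays of 4 members stood apart and lower (12.2%), with Ehmt2 in addition to the called genes. Those of Cbx3, again in its dim probe set, stood apart and higher (22.9%). The median of all probe sets stood 0.10 above 0 in this contrast, and the member changes include that shift. In double deficient against Eed deficient cells, Suv39h2 and Cbx5 were lower, 2 of 9 (0.559% of all lower), and 0 were higher (0.716%), with 1.28% called in either direction. Their arrays were also the ones that stood apart (8.35% of all lower, 14.7% higher). The count was 0 without Eed deficient replicate 1 or 2 or double deficient replicate 1 or 3, and 1 without Eed deficient replicate 3 or double deficient replicate 2.

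Between the single mutants, Eed deficient against Ring1B deficient, 0 of 9 members were called by limma and 0 had an unadjusted p under 0.05. Of all probe sets 2.84% were called, 2.15% higher and 0.686% lower. The arrays of 0 members stood apart (7.46% of all lower, 12.2% higher). The 95% intervals of the difference ran from -0.37 to 0.22 for Suv39h2, from -0.55 to 0.08 for Cbx1 and from -0.36 to 0.13 for Cbx5. All these contrasts share arrays, so their counts are not independent.

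**Figure D4:**
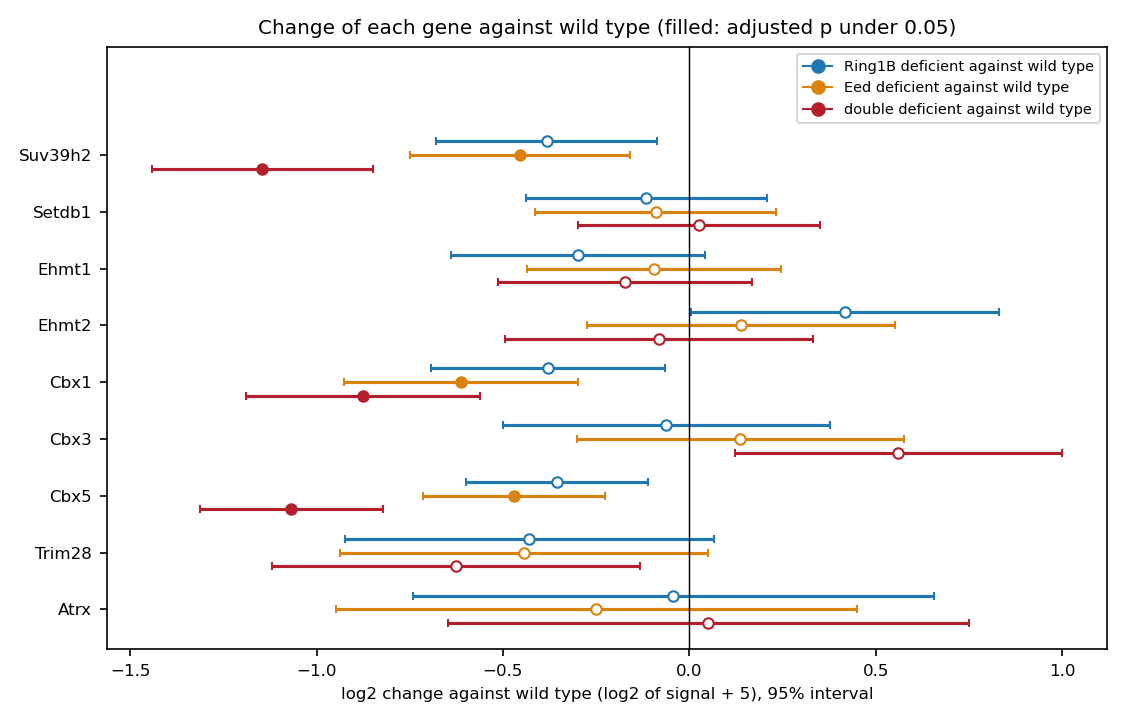
Log2 change of the brightest probe set of each gene in the 3 mutant genotypes against wild type (horizontal axis, log2 of signal plus 5), with 95% intervals of the limma model. Filled points passed an adjusted p of 0.05, which were Suv39h2, Cbx1 and Cbx5 in Eed deficient and double deficient cells.

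Whether loss of Ring1B had a different effect in Eed deficient than in wild type cells was tested by the interaction. It was called for 0 of 9 member genes by limma (1.05% of all probe sets, 0.406% higher and 0.639% lower), with Ehmt2 at an unadjusted p of 0.0348. The interaction was -0.31 for Suv39h2 (95% interval -0.73 to 0.11), -0.24 for Cbx5 (-0.59 to 0.10) and 0.12 for Cbx1 (-0.33 to 0.56) on the log2 scale. Each of these 3 intervals holds 0, the value for log2 changes that add up, and also holds departures as large as its ends.

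Other markers moved with the genotypes too. Of 15 genes of cell division, 14 were measured, and 8 of these fell in double deficient cells and 0 rose (8.71% of all probe sets lower and 15.2% higher, the shares for each marker count here). Their summed signal ran from 16164 to 17680 on the double deficient arrays, from 19068 to 21222 on the Eed deficient, from 19982 to 22629 on the Ring1B deficient and from 21848 to 24541 on the wild type arrays. Of the primitive and visceral endoderm markers, 11 of 11 rose in double deficient cells, with summed signals of 206 to 245 in wild type, 1951 to 2772 in Ring1B deficient, 1967 to 4427 in Eed deficient and 3845 to 3974 in double deficient cells. The ES cell markers summed to 20195 to 20710 in wild type and 14179 to 16073 in double deficient cells, and 5 of 8 fell. Of 9 fibroblast markers measured, 6 rose, with sums of 502 to 611 in wild type, 422 to 615 in Ring1B deficient, 755 to 2178 in Eed deficient and 1775 to 2215 in double deficient cells. The Eed deficient arrays were uneven, with a middle sum of 853 for the fibroblast and 3174 for the endoderm markers. Col1a2, for example, gave 238, 292 and 650 on Eed deficient replicates 1, 2 and 3. Some markers were at background in wild type cells, such as Ttr (0.54 ± 0.11) and Afp (2.25 ± 0.27). The lowest 40th percentile of an array was 12.1. The part of the markers in the falls of Suv39h2, Cbx1 and Cbx5 was not tested.

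A list of 43 other genes was read beside the members. It held writers and erasers of H3K9 methylation and partners of SETDB1, TRIM28, the EHMT enzymes, HP1 and heterochromatin. Of these genes, 40 were tested. In double deficient against wild type cells 3 were higher, 11 lower and 26 missed the threshold, where 15.2% of all probe sets were higher and 8.71% lower. Their median log2 change was -0.14. Of these 14 calls, 6 held under every alternative run on them, namely Prdm16, Phf2, Kdm1a, Kdm7a, Lrwd1 and Incenp. The other 8 were lost when some single array was left out, and the count of lower genes was then 7, 7 and 6 without wild type replicate 1, 2 and 3, and 6, 5 and 4 without double deficient replicate 1, 2 and 3. Among 12 tested HP1 and heterochromatin partners, 6 were lower (8.71% of all probe sets) and 0 higher (15.2%), and 2 to 4 were lower when 1 wild type or double deficient array was left out. These were Lrwd1, which binds repressive histone marks with the origin recognition complex, Uhrf1, which reads methylated H3K9 during DNA methylation maintenance, Incenp of the chromosomal passenger complex, Chaf1b of the CAF-1 histone chaperone, the remodeller Hells and the nuclear envelope receptor Lbr. Lrwd1 gave 1055 ± 140, 941 ± 78.6, 729 ± 83.3 and 676 ± 35.2 in genotype order (log2 change -0.63 in double deficient cells, adjusted p = 0.0034). Uhrf1 gave 945 ± 156, 735 ± 125, 876 ± 166 and 633 ± 17.8 (-0.56, adjusted p = 0.0242). The Uhrf1 call was lost under quantile normalization and when replicate 1 or 3 of the wild type cells or any double deficient array was left out (adjusted p from 0.0532 to 0.0883).

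Of 10 tested erasers, 2 fell and 1 rose in double deficient cells, where 8.71% of all probe sets were lower and 15.2% higher. Kdm7a, a demethylase of H3K9 and H3K27, gave 123, 153 and 172 on the wild type arrays and 61.0, 75.4 and 53.0 on the double deficient arrays, with no overlap (log2 change -1.18, SE 0.20, adjusted p = 6.47e-04). It was also lower than in Eed deficient cells (-0.87, adjusted p = 0.046), a call lost under 14 of 22 alternatives. Kdm1a, a demethylase of H3K4 and H3K9, went from 1338 ± 237 to 788 ± 57.1 (-0.75, adjusted p = 0.00934). Phf2, a demethylase of dimethyl H3K9, rose from 44.0 ± 3.60 to 79.5 ± 13.4 (0.78, adjusted p = 0.00418).

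Of the 4 other writers, Prdm16 and Mecom rose from levels near the background, and Setdb2 and Prdm2 were not called. Prdm16 gave 12.2 ± 4.05, 25.6 ± 3.21, 26.5 ± 4.29 and 36.4 ± 4.25 in genotype order and was called against wild type in each mutant (log2 changes 0.86, 0.89 and 1.29, adjusted p = 0.036, 0.0156 and 6.45e-04). Without wild type replicate 3 the calls in Ring1B deficient and Eed deficient cells were lost (adjusted p = 0.136 and 0.0655), as they were without some other arrays. Mecom gave 8.34 ± 10.5 in wild type and 23.8 ± 7.998 in double deficient cells (1.37, adjusted p = 0.0359), and its arrays overlapped. This call was lost under both other scalings and when replicate 1 or 3 of the wild type cells or any double deficient array was left out (adjusted p from 0.0535 to 0.143). Of the 10 SETDB1 and TRIM28 partners, Atf7ip2 and Mphosph8 fell (-0.61 and -0.50, adjusted p = 0.022 and 0.0485). The Atf7ip2 call was lost when replicate 1 or 2 of the wild type cells, or replicate 2 or 3 of the double deficient cells, was left out (adjusted p from 0.0665 to 0.0843), and the Mphosph8 call under 13 of 22 alternatives (up to 0.174). Of the 4 EHMT partners, Cdyl, which binds H3K9 and H3K27 methylation, fell from 557 ± 153 to 348 ± 33.5 (-0.64, adjusted p = 0.0357). It too was lost when wild type replicate 1 or any double deficient array was left out (adjusted p from 0.0576 to 0.146).

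Of the 40 tested genes, Eed deficient cells had 1 higher and 3 lower (Prdm16, and Lrwd1, Cdyl and Atf7ip2), where 7.49% of all probe sets were higher and 3.30% lower. Ring1B deficient cells had 1 higher and 1 lower (Prdm16 and Chaf1b), counts close to the shares of all probe sets (2.91% higher and 1.59% lower). Leaving out 1 array gave from 0 to 2 higher and from 1 to 3 lower in the former, and from 0 to 1 in each direction in the latter. Of these calls, 0 of 4 in Eed deficient and 0 of 2 in Ring1B deficient cells held under every alternative. The Cdyl call in Eed deficient cells was lost under 10 of 22. Chaf1b gave 298 ± 33.5, 191 ± 18.6, 219 ± 8.71 and 218 ± 22.3 in genotype order, with log2 changes of -0.63 in Ring1B deficient and -0.44 in double deficient cells (adjusted p = 0.022 and 0.0374). Both Chaf1b calls were lost when replicate 2 or 3 of the wild type cells was left out, or replicate 1 or 3 of the mutant concerned (adjusted p from 0.0625 to 0.155).

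**Figure D5:**
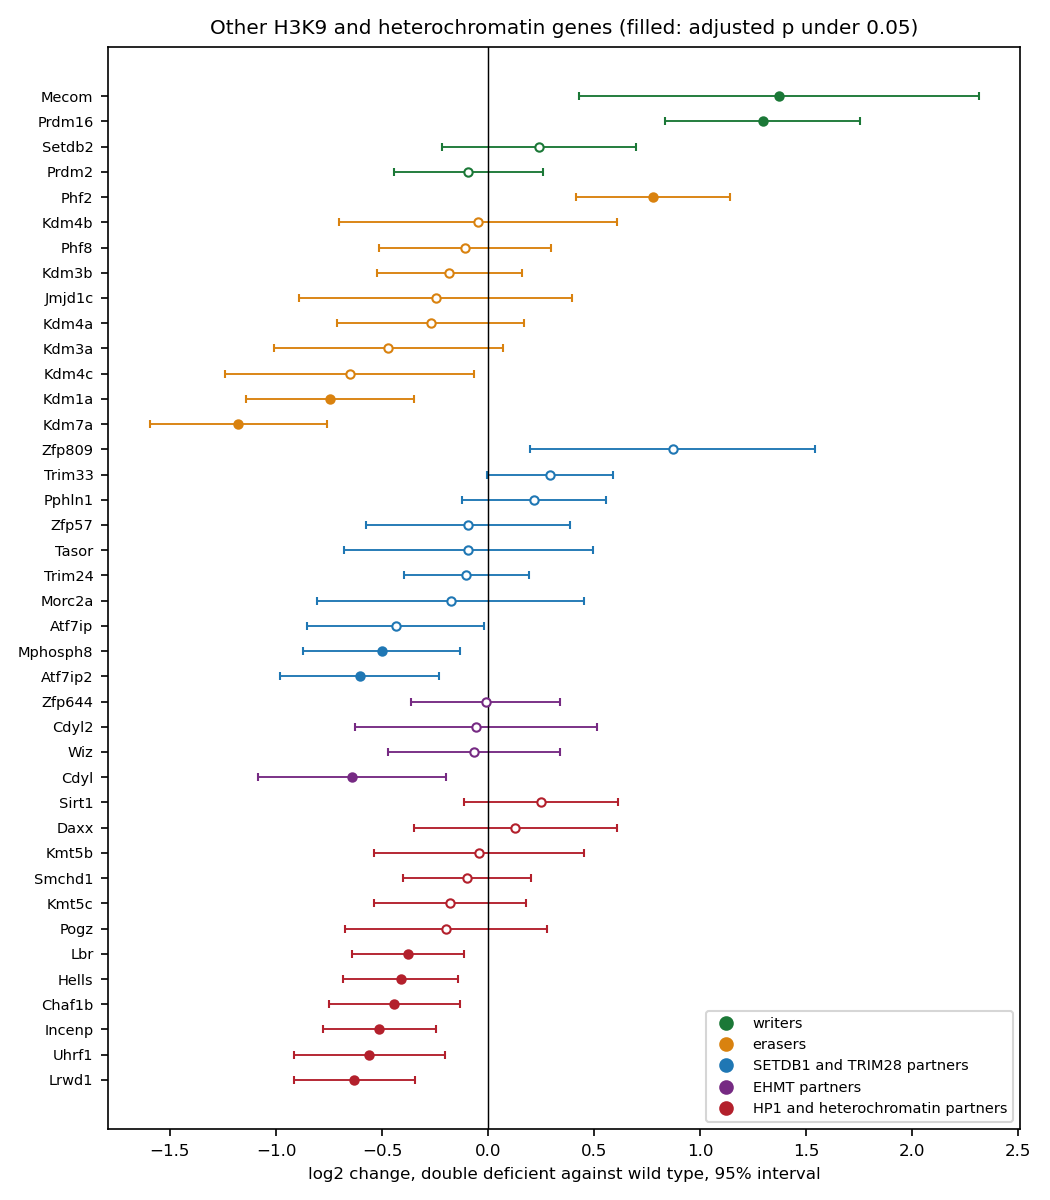
Log2 change in double deficient against wild type cells for the 40 tested genes of the H3K9 and heterochromatin list, grouped by role, with 95% intervals of the limma model. Filled points passed an adjusted p of 0.05, which were 3 above 0 and 11 below.

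The genes most like Suv39h2 and Cbx5 over the 12 arrays were looked up among the 13983 other genes, by Pearson's r of log2 signals. For Suv39h2 these were Cpsf4l (r = 0.990), Tex14 (0.970), Cbx5 (0.968), Pisd (0.966) and Sinhcaf (0.964). For Cbx5 they were Tex14 (0.988), Csnk1a1 (0.976), Suv39h2 (0.968), Nedd4 (0.968) and Abi2 (0.965). Tex14, a germ cell gene of intercellular bridges, stood in both lists and gave 164 ± 29.3, 114 ± 7.11, 89.5 ± 11.03 and 40.7 ± 6.51 in genotype order (SD, n = 3). These correlations describe 12 arrays that fall into 4 genotypes and share their scaling.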

How the data were processed

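Gene expression was measured in mouse ES cells on 12 Affymetrix Mouse 430_2.0 arrays. The deposited values are intensities on a linear scale. The submitters' processing notes name MAS5 as the authors' tool, with no version or settings. Each array had a trimmed mean of 100 with 2% left off at each end. The medians of the arrays differed by 1.47 times, under the limit of 2 set for further scaling, so none was done. The number of arrays limits the precision.

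Of 45101 probe sets, 64 controls were left out. Of the rest, 34945 carried 1 symbol in the platform annotation, 932 several and 9160 none. A probe set was tested if at least 3 arrays lay above their own 40th percentile, which kept 30027. Signals were analysed as log2(signal + 5), so fold changes of dim probe sets are understated. Limma 3.58.1 in R 4.3.3 fitted 1 mean per genotype to all arrays, with an intensity trend. P-values were adjusted by Benjamini-Hochberg over all 30027 probe sets, and calls were made under 0.05. The fit was tested on simulated data.

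All member probe sets are reported. The 8 list genes with the largest called change in double deficient cells, the 5 most correlated genes of the 2 members with the widest range of genotype means, and the promoters of those 2 members were named by rule. The Cbx1 promoter, the other list genes and Tex14's levels were chosen after their values were seen. Members and lists were chosen with earlier results of these data known. Alternatives were other scalings, added values and filters, 1 probe set a gene, no trend, a replicate block, only the compared groups, and leaving out each array. Deviations from the genotype means correlated at -0.06 to 0.55 for same-numbered arrays (14 of 18 pairs over 0.1) and at -0.42 to 0.16 for others (8 of 36). The labels tie the numbers to no shared source, and not every same-numbered pair was over 0.1, which the rule for pairing asked, so the block was kept as an alternative. A shared replicate effect is not excluded by this.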

Additional observations from a re-analysis of the deposited data

How the results depend on the processing

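In the brightest probe set of each gene, the falls of Suv39h2, Cbx1 and Cbx5 in double deficient against wild type cells were called under each of the 22 alternatives run. The log2 changes ran from -1.40 to -1.01, -1.13 to -0.76 and -1.32 to -0.99. Dimmer probe sets of these genes did not all fall, as given above for Cbx5. No called change of a member or list gene changed sign. Of 174 member counts under alternatives, 159 stayed within 1.5 times. These include counts that stayed at 0, under 22 alternatives between the single mutants and 21 for the interaction. In Eed deficient against wild type cells 18 of 22 stayed, and in double deficient against Eed deficient cells 14 of 22. With a replicate block, the member count was 3 in Ring1B deficient against wild type cells (Cbx1, Cbx5 and Trim28, lower), 5 in double deficient against Ring1B deficient cells and 5 by the F test. The shares of all probe sets called under the block are not given here. Calls among the 40 list genes rose under the block too. They went from 1 higher and 1 lower to 2 and 4 in Ring1B deficient against wild type cells. In double deficient against Ring1B deficient cells they went from 1 and 5 to 2 and 7. The same block called the Trim28 fall in double deficient against wild type cells (-0.63, adjusted p = 4.63e-05). It changed no other member count by over 1.5 times, and 10 of 12 arrays correlated best with an array of their own number, a hint from the data and not the design. With only the compared groups in the fit, the count was 1 in Eed deficient against wild type and 0 in double deficient against Eed deficient cells, and without the intensity trend it was 1 in the latter. Leaving out 1 array gave from 0 to 2 called members in Eed deficient against wild type and from 0 to 2 in double deficient against Eed deficient cells. The Suv39h2 fall in Eed deficient cells was called under 6 of 22 alternatives, with adjusted p from 0.0256 to 0.139. The cause of these shifts was not tested. Median centring gave 2787 higher and 5974 lower probe sets in double deficient against wild type cells, where the deposited scaling gave 4559 and 2614 and quantile normalization 3586 and 3656. In Eed deficient against wild type cells the same splits were 1745 and 1330, 2248 and 990, and 2004 and 1168. Signal over background limits Cbx3, Prdm16 and Mecom.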
